A study of Mus musculus with 6 samples.

Results

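Transcripts of the ABC and Slco membrane transporters were measured in the livers of 6 mice of the inbred strain C57BL6/J, taken whole 2 h after dosing by mouth. The dose was 250 mg/kg of CBZ, a compound known here only by that abbreviation, in 3 mice, and the solvent dimethyl sulfoxide (DMSO) in 3. RNA of each liver was hybridised to its own 1-colour Agilent array, and all 6 arrays lay on 1 slide, with the DMSO arrays and CBZ 1 in row 1 and CBZ 2 and CBZ 3 in row 2. Row 2 thus held no DMSO array. Values given below with the slide row as a covariate therefore set CBZ 1 alone against the 3 DMSO mice. The question was which transcripts of the transporters differed in signal between CBZ and DMSO.

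Probes were taken by gene symbol, from the ABC subfamilies A, B, C, D and G and from the Slco family, together with TC1646634, a transcript without a gene name whose probe lies between the probes of Slco1a4 and Slco1a1. Abcb11 was left out. TC1646634 was added by name, with earlier results of these data known. It is counted below among the transporter probes, though no transporter gene is assigned to it. On the array 88 probes of 61 such names were found. Of these, 47 probes of 40 names (39 genes and TC1646634) had signals well above background in all 3 mice of DMSO, of CBZ or of both. They stood among 22352 probes kept by the same criterion out of 55681 on the array.

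ABC proteins use ATP to pump substrates across a membrane, and in hepatocytes those of the canalicular membrane load bile with drugs, conjugates, phospholipid and sterols, while those of the basolateral membrane return conjugates to blood. Slco genes encode organic anion transporting polypeptides, which take bile acids, hormones and many drugs from blood into the cell without ATP. Several genes of both families are textbook targets of CAR and PXR, nuclear receptors that respond to foreign compounds by raising enzymes and transporters of drug clearance.

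Signals below are given relative to the 75th percentile of the mouse's own array, and a log2 fold change is the mean log2 signal in CBZ minus that in DMSO, ± its moderated standard error from limma. On each array 42.6% to 45.8% of spots were well above background and 0 were saturated, and across probes the arrays correlated pairwise at r of 0.982 to 0.986, where probes are not independent replicates. The hepatocyte markers were detected on all arrays in 8 of 8 cases. Their summed signal was 5912 to 6381 in DMSO and 5962 to 6821 in CBZ. Markers of Kupffer cells (125 to 281 against 163 to 198), endothelium (60.8 to 96.2 against 67.9 to 89.8) and stellate cells (104 to 117 against 89.2 to 153) gave overlapping sums in DMSO and CBZ. Of the cholangiocyte markers 2 of 6 were detected on all arrays, with sums of 2.46 to 3.76 and 3.40 to 4.53, and Cftr and Epcam were on none. The probe-level test called 0 markers of any of these lists. In whole tissue, fewer cells of a type and less RNA per cell cannot be told apart.

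Of the 47 probes, TC1646634 rose at an adjusted p under 0.05 in limma, and 0 fell. TC1646634 was chosen with earlier results of these data known, so its share among the 47 is given as a description. Of the other 46 probes 0 rose. Across all 22352 probes 12 rose (0.0537%) and 2 fell (0.00895%). At an unadjusted p under 0.05 limma gave 3 higher probes of the 47, or 6.38%, against 5.01% of all probes. It gave 2 lower ones, or 4.26%, against 4.37%. The higher ones were TC1646634, Abcg4 and a probe of Slco3a1, and the lower ones Abca9 and Abca6. In 3 probes every CBZ mouse lay above every DMSO mouse, which was 6.38% of the transporter probes and 6.25% of all probes. In another 3 every CBZ mouse lay below every DMSO mouse, against 7% of all probes. Without TC1646634, 2 of 46 probes were higher at an unadjusted p under 0.05 in limma, and 2 were higher without overlap. Apart from TC1646634, the shares of transporter probes that differed were thus near those of the whole array.

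**Figure D1:**
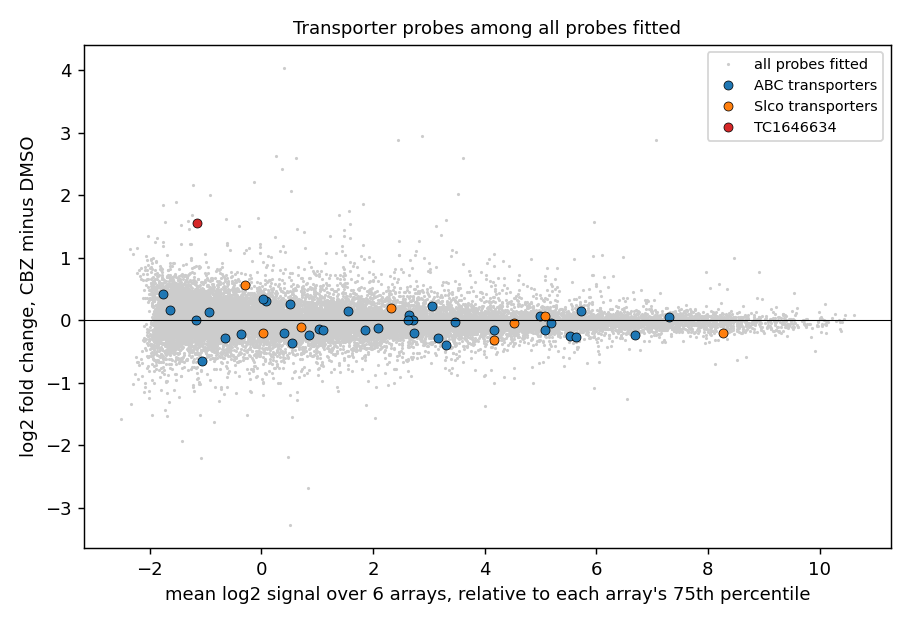
Log2 fold change (CBZ minus DMSO) against mean log2 signal over the 6 arrays, relative to each array's 75th percentile, for all 22352 probes fitted (grey), the ABC transporters reported (blue), Slco transporters (orange) and TC1646634 (red). TC1646634 at 1.56 stands away from the ABC and Slco probes, which lie between -0.65 and 0.56.

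The transcript that rose is measured by a probe at chr6:141802114-141802173 (mm9, plus strand, the build of the array design). The probe of Slco1a4, which reads the minus strand, lies 47380 bp away, and that of Slco1a1, also on the minus strand, 54320 bp away on the other side. In RefSeq on GRCm38.p6 Slco1a4 spans 50847 bp, more than the gap between its probe and that of TC1646634, and the long noncoding RNAs Gm30784 and Gm30843 lie between Slco1a4 and Slco1a1. Whether the probe falls inside the span of Slco1a4 or another gene, and in an exon or an intron, was not analysed here. Its 60 bases, from the deposited files, are shown because all values of TC1646634 rest on this single sequence. Capitals mark a run of 12 bases that occurs 2 times in it.
TC1646634: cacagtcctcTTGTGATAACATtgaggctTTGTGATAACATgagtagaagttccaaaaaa
The probe ends in 6 As. The longest run it shared with any other probe of the array was 13 bases on the same strand and 15 bases in reverse complement, and with any other transporter probe 9 bases.

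TC1646634 had signals of 0.242, 0.252 and 0.295 in DMSO mice 1 to 3 and of 0.750, 1.01 and 0.609 in CBZ mice 1 to 3. All CBZ mice were above all DMSO mice, and the lowest CBZ mouse was more than double the highest DMSO mouse. TC1646634 was well above background on all 6 arrays, but its DMSO signals were near the floor. A probe of Abcg3 with signals of 0.249, 0.211 and 0.255 in DMSO was well above background in 1 of those mice. The log2 fold change of TC1646634 was 1.56 ± 0.19, with an adjusted p of 0.043 in limma. This 2.95-fold rise rests on dim DMSO signals. The call was lost without any 1 of the 6 mice, where the log2 fold change ran from 1.37 to 1.73 and limma's adjusted p from 0.058 to 0.18. With the row on the slide as a covariate the log2 fold change was 1.52. With normexp background correction, which added an offset of 50 to the intensities, it was 0.80 with an adjusted p of 0.0091 in limma. Such an offset lowers the fold change of dim probes, here and in the normexp values below, and its part was not tested.

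Neighbours of TC1646634 did not pass the test. Slco1a4, an uptake carrier of bile acids and cardiac glycosides and a known PXR target, had signals of 4.54, 5.37 and 4.13 in DMSO and 6.37, 6.35 and 3.76 in CBZ. CBZ 1 and CBZ 2 were above every DMSO mouse, while CBZ 3 was the lowest of all 6. Its log2 fold change was 0.20 ± 0.22 (adjusted p = 0.92, limma), with a 95% interval of -0.30 to 0.70. It was 0.45 with the row on the slide as a covariate and without CBZ 3, and 0.07 without CBZ 1 or without CBZ 2. Slco1a1, an uptake carrier of the sinusoidal membrane, had signals of 20.4, 24.3 and 16.5 in DMSO and 15.2, 18.6 and 15.1 in CBZ. The groups overlapped through CBZ 2, and the log2 fold change was -0.31 ± 0.17 (adjusted p = 0.68, limma), or -0.18 without DMSO 2. An expressed sequence tag on the plus strand, CA492558, was measured 21145 bp from TC1646634 and gave 0.21 ± 0.19 (adjusted p = 0.89, limma).

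TC1646634 was also set against its neighbours within each array. Its log2 signal minus that of Slco1a4 averaged -4.15 in DMSO and -2.79 in CBZ, a difference of 1.36. Against Slco1a1 the mean was -6.26 in DMSO and -4.39 in CBZ, a difference of 1.87. In both cases all CBZ mice were above all DMSO mice. These differences are given as a description, since TC1646634 was singled out by its rise in these same mice.

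**Figure D2:**
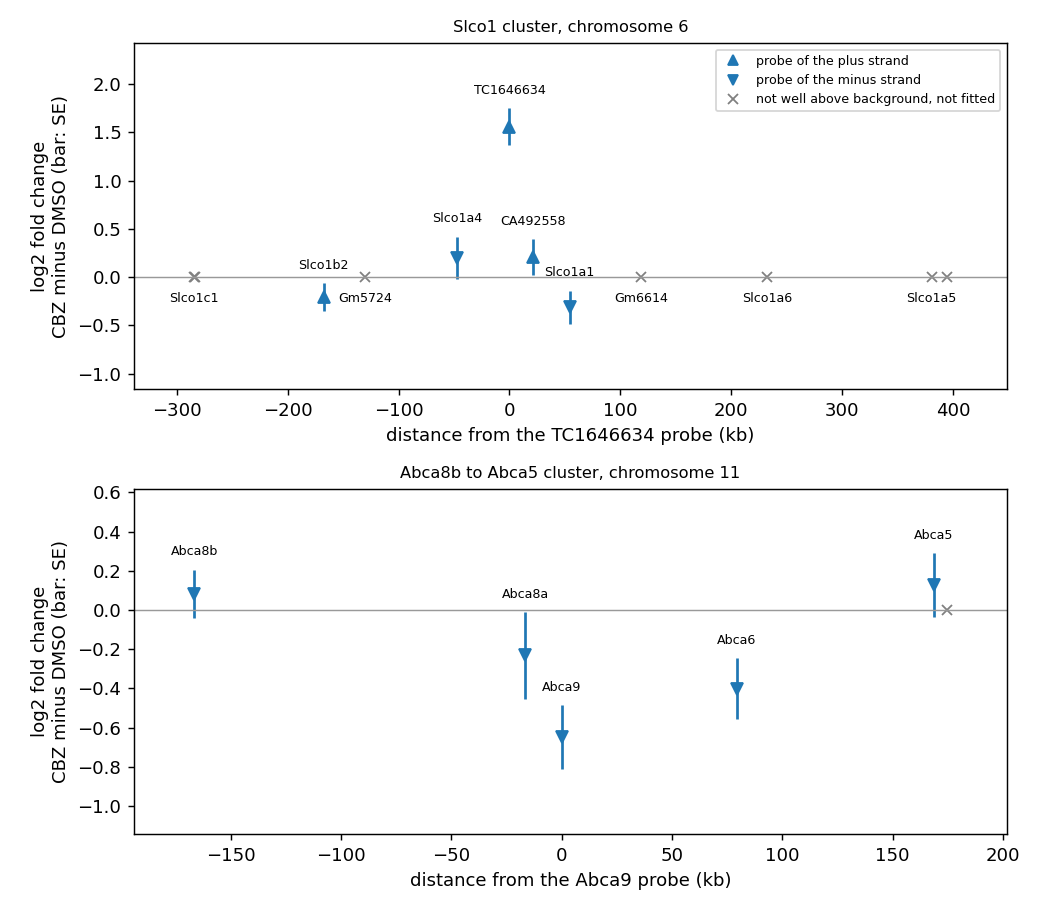
Log2 fold change (bar: standard error, n = 3 mice per group) by distance in kb from the TC1646634 probe on chromosome 6 (upper) and from the Abca9 probe on chromosome 11 (lower), with triangles up for plus-strand and down for minus-strand probes and crosses for probes not well above background, which have no fold change. TC1646634 at 1.56 lies between Slco1a4 at 0.20 and CA492558 at 0.21, and in the lower panel Abca9 at -0.65 and Abca6 at -0.40 lie lowest.

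Because its probe is that of the nearest named gene measured, Slco1a4 was looked at further, and the 250 bases before its start site are shown, from RefSeq on GRCm38.p6, chr6:141856221-141856470, minus strand. Capitals mark matches to the CCAAT box, read here on the other strand as ATTGG.
Slco1a4: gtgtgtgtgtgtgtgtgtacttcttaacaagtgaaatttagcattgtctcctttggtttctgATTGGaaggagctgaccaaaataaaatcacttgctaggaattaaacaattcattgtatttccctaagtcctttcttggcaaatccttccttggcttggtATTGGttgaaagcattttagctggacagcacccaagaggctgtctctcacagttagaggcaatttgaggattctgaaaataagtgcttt
On both strands the window held 2 CCAAT matches, 0 of the half-sites AGGTCA or AGTTCA, and 0 of TATAAA or of GGGCGG. For promoters, RefSeq gave 35 windows for 28 of the 39 transporter genes kept, some genes having several windows. Each window also held bases after its start site, unlike the 250 bases shown. Direct repeats of a nuclear receptor half-site, AGTTCANNNNAGTTCA (N is any base) and likewise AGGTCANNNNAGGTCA, were in 0 of the 35, and in 0.0122% and 0.0152% of all 32851 windows of the same length. CCAAT was in 11 of the 35 windows against 37.4% of all, and TATAAA in 9 against 13.6%. The single half-site AGTTCA was in 10 of the 35, those of Abcg5 and Abcg8 included, against 14.0% of all, and AGGTCA in 8 against 16.3%. These are matches of letters in a short window and say nothing of a factor.

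The remaining uptake carriers showed no change past the test. Over the Slco family, 8 probes of 6 genes gave 3 higher and 5 lower values with a median of -0.073. Slco1b2, the liver-specific carrier of bilirubin and statins, had signals of 339, 348 and 305 in DMSO and 264, 332 and 268 in CBZ. CBZ 1 and CBZ 3 lay below every DMSO mouse and CBZ 2 among them, and the log2 fold change was -0.21 ± 0.14 (adjusted p = 0.80, limma), or -0.32 with the slide row and -0.31 without CBZ 2. Slco2b1, a carrier of steroid sulfates, was read by 2 probes that gave -0.04 and -0.11. Slco2a1, the prostaglandin carrier, gave 0.07 ± 0.16.

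The probes of Slco3a1, a carrier of prostaglandins and thyroid hormone, gave values of opposite sign. A_55_P1989663, assigned to the transcript NM_023908 at chr7:81426878-81426937 (mm9, minus strand), had signals of 0.744, 0.596 and 0.678 in DMSO and 0.774, 1.06 and 1.17 in CBZ. All CBZ mice were above all DMSO mice, although CBZ 1 was only just above DMSO 1. The log2 fold change was 0.56 ± 0.18 and did not pass the test (adjusted p = 0.36, limma). With the row on the slide as a covariate it was 0.21, and with normexp background correction 0.34.

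A_66_P135106, assigned to NM_001038643 at chr7:81420362-81420421 (mm9, minus strand), had signals of 1.25, 1.05 and 0.984 in DMSO and 0.813, 0.906 and 1.17 in CBZ. The groups overlapped, and its log2 fold change was -0.19 ± 0.17 (adjusted p = 0.88, limma). The log2 signal of the A_55 probe minus that of the A_66 probe averaged -0.70 in DMSO and 0.05 in CBZ, a difference of 0.75, given as a description since this pair is named for its opposite signs. CBZ 2 and CBZ 3, the arrays of row 2, were highest in the A_55 signal. Row 2 held no DMSO array, so the covariate cannot separate the row from CBZ, and the part of the row was not tested.

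**Figure D3:**
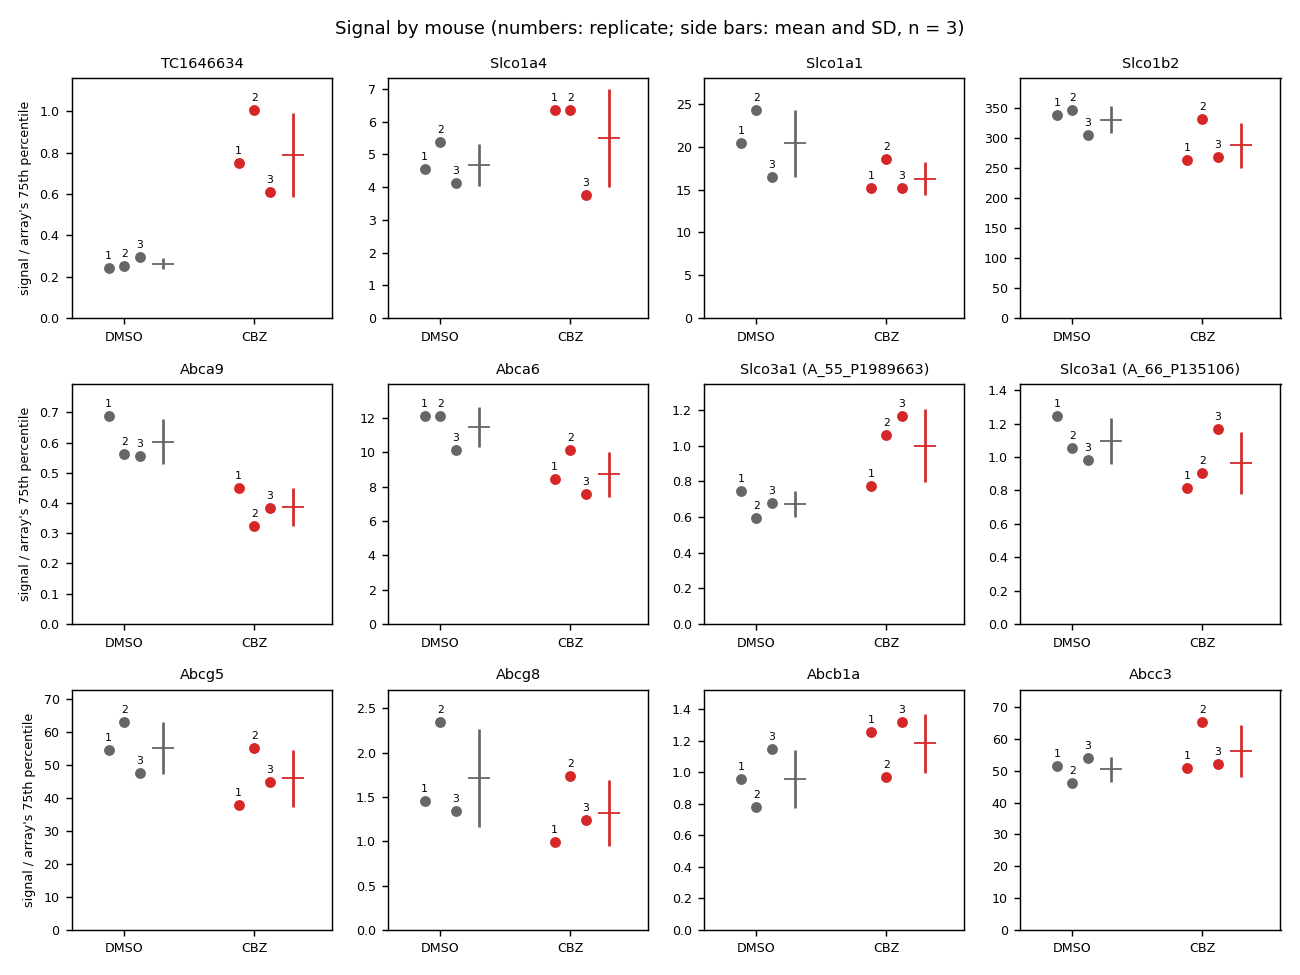
Signal of 12 transporter probes in each mouse, divided by the 75th percentile of its array (linear axis from 0), with the replicate number above each point and the mean and SD (n = 3) beside it. TC1646634 and the A_55 probe of Slco3a1 were higher in every CBZ mouse and Abca9 was lower, while the other 9 panels overlap between DMSO and CBZ.

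Transporters of the canalicular membrane gave mostly lower values, none past the test. Of 7 probes of 6 genes, which do not include Abcb11, 1 was higher and 6 were lower. Their median was -0.23 against -0.0062 over all probes. Under scaling by the array median, which moved the median of all probes to -0.11, the transporter probes as a whole split into 13 higher and 34 lower, against 20 and 27 here. Abcb4, the phosphatidylcholine flippase of bile formation, had signals of 106.96, 118 and 113 in DMSO and 86.2, 103 and 100 in CBZ at the probe A_51_P249118. All CBZ mice were below all DMSO mice, by a log2 fold change of -0.23 ± 0.13 (adjusted p = 0.71, limma), which was -0.39 with the slide row and -0.15 without CBZ 1. Its other probe, A_55_P1978696, gave -0.16 ± 0.19 with overlapping groups.

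Abcg5 and Abcg8, whose proteins pair to pump sterols into bile, are divergent neighbours. Abcg5 had signals of 54.6, 63.3 and 47.7 in DMSO and 37.9, 55.3 and 44.9 in CBZ, and Abcg8 had 1.45, 2.35 and 1.34 in DMSO and 0.996, 1.73 and 1.24 in CBZ. In both genes mouse 2 was the highest of its group, CBZ 1 was the lowest of all 6, and the groups overlapped. The log2 fold changes were -0.27 ± 0.18 for Abcg5 (adjusted p = 0.78, limma) and -0.37 ± 0.26 for Abcg8 (adjusted p = 0.81, limma). With the slide row they were -0.53 and -0.74, and with each mouse left out they ran from -0.41 to -0.14 for Abcg5 (without CBZ 2 and without CBZ 1) and from -0.58 to -0.12 for Abcg8 (without CBZ 2 and without DMSO 2). The stretch between their start sites, 109 bases at chr17:84683012-84683120 (RefSeq, GRCm38.p6, plus strand), is shown because both genes start from its ends. Capitals mark the match to TATAAA, which reads on the minus strand.
Abcg5-Abcg8: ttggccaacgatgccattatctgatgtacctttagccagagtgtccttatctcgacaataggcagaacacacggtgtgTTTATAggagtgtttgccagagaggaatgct
It held 1 TATAAA match, 0 of the half-sites AGGTCA or AGTTCA, and 0 of CCAAT or of GGGCGG.

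Abcg2, the exporter of urate, porphyrins and sulfate conjugates, had signals of 51.8, 52.5 and 46.5 in DMSO and 37.3, 47.0 and 43.1 in CBZ. CBZ 2 lay just above DMSO 3, so the groups overlapped, and the log2 fold change was -0.25 ± 0.14 (adjusted p = 0.68, limma), or -0.43 with the slide row and -0.16 without CBZ 1. Abcc2, the canalicular exporter of bilirubin glucuronides and a known CAR and PXR target, gave -0.05 ± 0.15, with a 95% interval of -0.38 to 0.29.

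Abcb1a, which encodes P-glycoprotein, was the canalicular probe with a higher value. Its signals were 0.957, 0.777 and 1.14 in DMSO and 1.26, 0.969 and 1.32 in CBZ. CBZ 1 and CBZ 3 were above every DMSO mouse, and the log2 fold change was 0.31 ± 0.19 (adjusted p = 0.73, limma), or 0.16 without DMSO 2. Abcb1b, its close paralogue, was well above background in 1 DMSO mouse and 0 CBZ mice and was not fitted.

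Basolateral exporters also stayed short of the test. Of 6 probes of 5 genes 1 was higher and 5 were lower, with a median of -0.071. Abcc3, the exporter of glucuronides to blood and a known CAR target, had signals of 51.4, 46.1 and 53.9 in DMSO and 51.0, 65.5 and 52.2 in CBZ. Only CBZ 2 stood above the DMSO mice, and the log2 fold change was 0.15 ± 0.15 (adjusted p = 0.90, limma), or 0.03 without CBZ 2 and 0.02 with the slide row. Abcc5, an exporter of cyclic nucleotides, had signals of 0.691, 0.691 and 0.727 in DMSO and 0.596, 0.645 and 0.509 in CBZ. All CBZ mice were below all DMSO mice, by -0.27 ± 0.14 (adjusted p = 0.61, limma), or -0.18 without CBZ 3 and -0.15 with normexp. This rests on the probe A_51_P116421. The Abcc5 probes A_55_P2073935 and A_55_P2073940, well above background on some arrays only, overlapped between groups and were not fitted. A_52_P628117 was well above background on 0 arrays.

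Abcc6, the liver protein behind ATP release and pseudoxanthoma elasticum, was read by probes that gave -0.16 and -0.00. Abca1, which loads apolipoprotein A-I with cholesterol, gave -0.03 ± 0.15, and Abcc10 gave -0.11 ± 0.13. Abcc4, a basolateral bile salt exporter and known CAR target, was well above background in 2 mice of each group. Its signals of 0.452, 0.331 and 0.192 in DMSO and 0.398, 0.454 and 0.206 in CBZ overlapped, and it was not fitted.

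In the lipid transporters of subfamilies A and G, 13 probes of 12 genes gave 6 higher and 7 lower values with a median of -0.15. The lowest lay in a row of related genes on chromosome 11, from Abca8b to Abca5. Abca9, a member of the cholesterol-responsive ABCA6-like group, was read at chr11:109962136-109962195 (mm9, minus strand). Its signals were 0.689, 0.564 and 0.555 in DMSO and 0.450, 0.323 and 0.384 in CBZ, so that all CBZ mice were below all DMSO mice. The log2 fold change was -0.65 ± 0.16, and it did not pass the test (adjusted p = 0.25, limma). It was -0.42 with the row on the slide as a covariate and -0.32 with normexp background correction.

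Abca6, its neighbour, had signals of 12.1, 12.1 and 10.1 in DMSO and 8.44, 10.1 and 7.56 in CBZ. The groups touched at DMSO 3 and CBZ 2, and the log2 fold change was -0.40 ± 0.15 (adjusted p = 0.46, limma). The other genes of the row were Abca8a at -0.23 ± 0.22, Abca8b at 0.08 ± 0.12 and Abca5 at 0.13 ± 0.16. The values in the row therefore lay on both sides of zero.

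Abcg4, a sterol transporter best known from brain, had signals of 0.803, 0.915 and 1.00 in DMSO and 1.13, 1.24 and 1.07 in CBZ. All CBZ mice were above all DMSO mice, by 0.34 ± 0.14 (adjusted p = 0.49, limma), or 0.22 with normexp. This rests on the probe A_55_P2017998, while the other Abcg4 probes, A_55_P2018002 and A_66_P130654, were well above background on 0 arrays. Abcg1, which moves cholesterol to high-density lipoprotein, gave -0.22 ± 0.25, a value that ran from -0.48 without DMSO 3 to -0.03 without DMSO 1 and was -0.0027 with the slide row. Abca14 and Abca17, each not well above background on at least 1 array, gave 0.41 ± 0.32 and 0.17 ± 0.21. Abca14 was 0.10 without DMSO 2, 0.80 without DMSO 3 and 0.13 with normexp, and Abca17 ran from -0.03 without DMSO 1 to 0.34 without CBZ 3. Abca2 gave -0.15 and -0.21 at its 2 probes, Abca3 gave 0.06 and Abca7 gave -0.21.

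Among transporters of mitochondria and lysosomes in subfamily B, 7 probes of 5 genes gave 4 higher and 3 lower values, with a median of 0.0098. Abcb8 gave 0.24 and 0.26 at the 2 of its probes that were fitted. Abcb6, a porphyrin transporter, gave -0.16 ± 0.14, Abcb9 gave -0.13 and Abcb10, which serves haem synthesis in mitochondria, gave 0.01.

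The peroxisomal subfamily D, which imports fatty acyl-CoA for oxidation, held 0 probes past limma's test, and likewise 0 at an unadjusted p under 0.05. Abcd3 gave 0.05 ± 0.13, with signals of 164, 162 and 140 in DMSO and 146, 171 and 167 in CBZ that interleaved. Abcd4, a lysosomal cobalamin transporter despite its subfamily, gave -0.29 ± 0.21. The sulfonylurea receptors Abcc8 and Abcc9, regulators of potassium channels, gave 0.01 ± 0.33 and 0.16 ± 0.25.

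**Figure D4:**
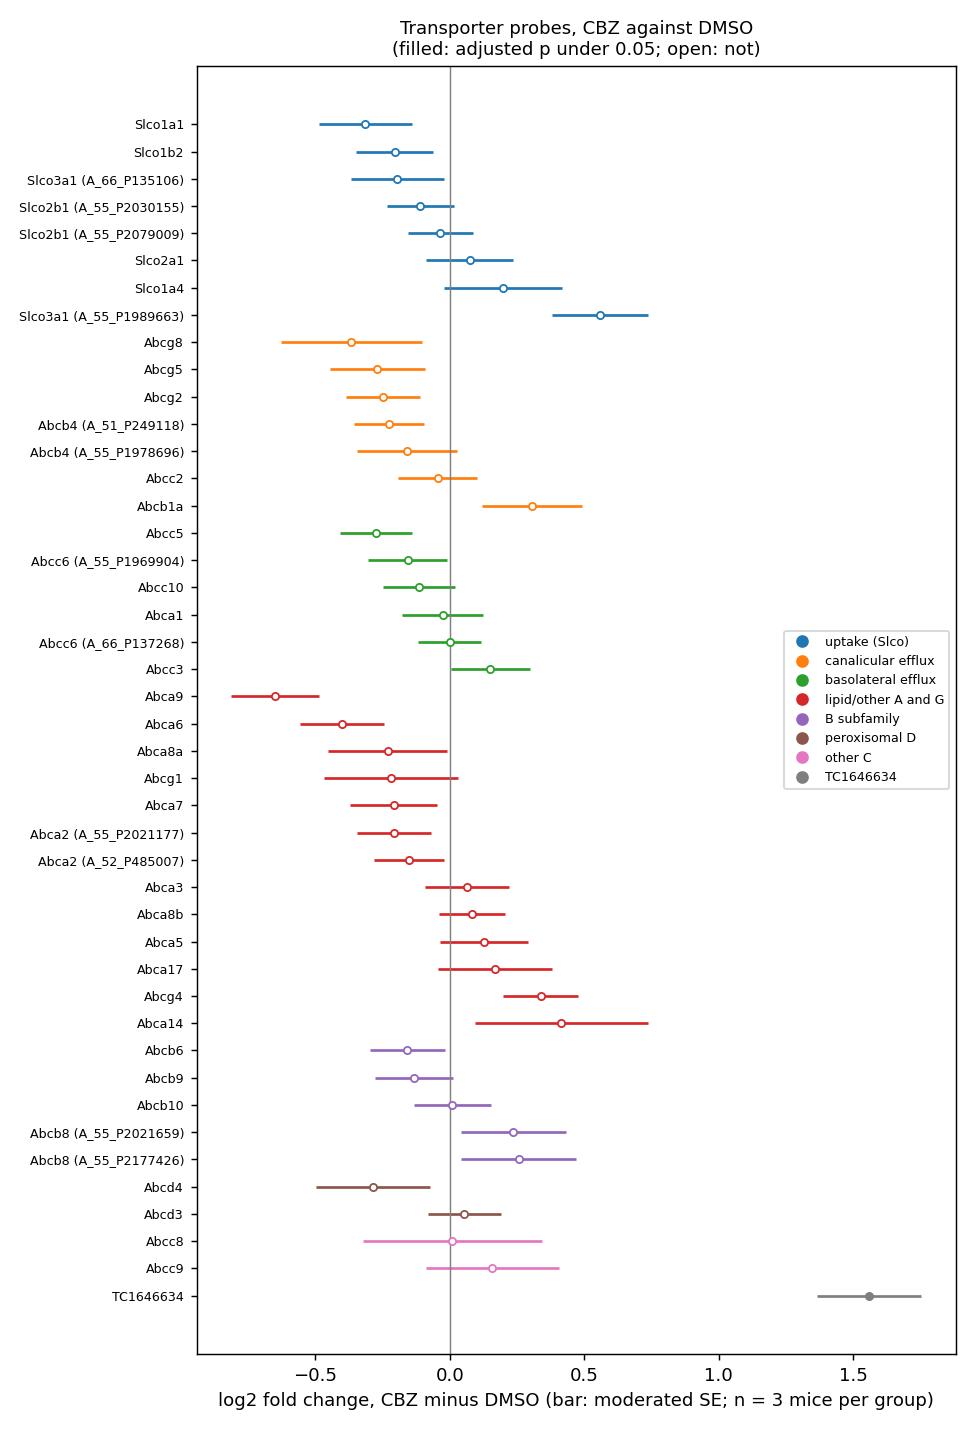
Log2 fold change (CBZ minus DMSO, bar: moderated standard error, n = 3 mice per group) of 44 of the 47 transporter probes, ordered by role and coloured by group, filled where the adjusted p was under 0.05. TC1646634 at 1.56 is filled, and the other 43 are open and lie between -0.65 and 0.56.

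Differences were of a size with the spread between mice, and in 18 of the 47 probes the log2 fold change was larger than the SD within groups. The SD within groups had a median of 0.20 on the log2 scale over the 46 probes besides TC1646634, ranging from 0.048 to 0.56, and 4 exceeded 0.4. Of the 47 probes 45 differed by less than 1.5-fold, the others being TC1646634 and Abca9. The 95% interval of the log2 fold change lay within -1 and 1 in 44 of the 46 probes, and in 26 it lay within 1.5-fold either way. The median log2 fold change over all 47 was -0.046. By count 20 were above 0, or 42.6% against 48.6% of all probes, and 27 were below, or 57.4% against 51.4%. Among the genes with more than 1 probe, those of Slco3a1 differed most, by 0.75 on the log2 scale.

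Of the 61 names, 21 had no probe that met the criterion for signal. Of these 18 were not well above background on any array, among them Abcd2, Slco1a5 and Slco1c1. Abcc4, Abcb1b and Abcg3 were above it on some arrays only. For these 21 genes no fold change is given.

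Genes that share regulators with the transporters were set beside them. These lists were made with earlier results of these data known, so their counts are given as a description. Of 31 listed targets of CAR and PXR that are not transporters 25 were measured, and 2 rose in limma's test, against 0.0537% of all probes, with 19 of the 25 above 0 and a median of 0.12. At an unadjusted p under 0.05 in limma 7 of the 25 were higher and 0 lower, against 5.01% and 4.37% of all probes, and without overlap between groups 7 were higher and 0 lower, against 6.25% and 7%. Gadd45b, a stress and growth gene, gave 2.95 ± 0.20 (adjusted p = 0.0056, limma). Cyp2c55, a cytochrome P450, gave 1.54 ± 0.18 (adjusted p = 0.033, limma). Cyp2b10 and Cyp2b9, close paralogues of the CAR-responsive P450 family whose probes may share signal, gave 2.89 ± 0.44 and 2.43 ± 0.35, both with an adjusted p of 0.066 or 0.065 in limma and with no overlap between groups. The difference between these genes and the transporters was not tested.

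Of 20 receptors and factors known to regulate transporter genes 0 passed limma's test, with 8 above 0 and 12 below. Before adjustment 3 of those above 0 and 1 of those below had p under 0.05 in limma, against 5.01% and 4.37% of all probes, and 5 were higher and 3 lower without overlap between groups, against 6.25% and 7%. Those with p under 0.05 in limma before adjustment were Ahr, Srebf1, Nr1h4 and Ppara. Ahr, the dioxin receptor, gave 0.73 ± 0.15 (adjusted p = 0.16, limma). Srebf1, a regulator of lipid synthesis, gave 0.50 ± 0.17 (adjusted p = 0.37, limma). Nr1h4, the bile acid receptor FXR, gave 0.29 ± 0.12 (adjusted p = 0.51, limma). Ppara, the fatty acid receptor, gave -0.49 ± 0.15 (adjusted p = 0.33, limma). Nr1i3 and Nr1i2, which encode CAR and PXR and were named after their values were seen, gave 0.29 ± 0.15 and 0.27 ± 0.16. Both were among the 5 higher without overlap, and Nfe2l2 and Rxrb were among the 3 lower.

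Other hepatic carriers of drugs, bile acids and organic ions, from the SLC families, were measured in 21 of 28 cases, and 0 passed limma's test, while at an unadjusted p under 0.05 it gave 1 of the 21 above 0 and 1 below, against 5.01% and 4.37% of all probes. Slc16a10, an aromatic amino acid carrier, gave -0.45 ± 0.13 and Slc22a15 gave 0.44 ± 0.19. Slc10a2, the apical bile acid carrier of cholangiocytes, gave 0.35 ± 0.20, beside the cholangiocyte marker sums given above, whose part was not tested. Slc22a18 gave -0.21 ± 0.13. The cytosolic ABC proteins Abce1, Abcf1, Abcf2 and Abcf3, which act in translation and lack membrane spans, gave 3 values above 0 and 1 below, with a median of 0.028, and 0 passed limma's test or an unadjusted p under 0.05.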

How the data were processed

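Each liver's total RNA was labelled with Cy3, per the labels' protocols. Per the file headers, scans were read by the authors in Agilent Feature Extraction 10.7.3.1, and each deposited spot intensity is linear, background-subtracted and detrended. The authors' deposited table holds a ratio of processed intensity to array median, since that division of the scanner values returned it.

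Outlier and control spots were left out. Processed intensity was put on the log2 scale relative to each array's 75th percentile, and a probe's spots were averaged. Probes well above background in all 3 mice of DMSO or of CBZ were kept. The contrast was fitted in limma 3.58.1 (R 4.3.3; lmFit, then eBayes, two-sided) without covariates, and p-values were adjusted by Benjamini-Hochberg over 22352 probes, with a threshold of 0.05. The fit was tested on simulated data. The number of arrays limits the precision. The design text counts 3 mice per group.

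The members and lists were chosen with earlier results of these data known. Named probes are those past the threshold, those without overlap between groups, up to 5 per direction by unadjusted p, a fixed set of liver transporters, and the brightest and dimmest. From other lists up to 4 genes with the smallest unadjusted p were named. Gene names came from RefSeq (GRCm38.p6), by accession for 27428 probes, symbol for 3483 and synonym for 507, and 24263 probes were left with their deposited names. Coordinates are mm9, except promoters, which are GRCm38.p6. Besides the marker lists in the report, those of T and B cells (2 of 6 detected on all arrays), erythroid cells (4 of 5), adipocytes (0 of 4) and exocrine pancreas (0 of 4) held 0 probes past the threshold. Alternatives were normexp correction with an offset of 50, median and quantile scaling, other signal filters and a trended robust prior. Further ones were the authors' table, a replicate block, the slide row, and leaving out each mouse. Some genes are not reported by name here, though the counts include those that met the rule.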

Additional observations from a re-analysis of the deposited data

How the results depend on the processing

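Among the 47 probes the count higher in CBZ at an adjusted p under 0.05 in limma was 1, TC1646634, which has no gene name. It was 0 with quantile normalization, with no filter on dim probes and with the replicate block, and ranged from 0 to 0 when each mouse was left out. TC1646634 had an adjusted p in limma of 0.099 with quantile normalization, 0.53 with no filter and 0.11 with the block. The slide row as a covariate, which sets CBZ 1 alone against the DMSO mice, gave TC1646634 a log2 fold change of 1.52. Same-numbered samples correlated in their deviations at -0.24, 0.016 and 0.18. CBZ 3 matched DMSO 3 best, while CBZ 1 and CBZ 2 matched other numbers best. With so few mice these values cannot tell whether the replicate numbers pair them. With the block limma called 9 probes higher and 1 lower over the array, against 12 and 2. The count of 1 held with normexp (adjusted p = 0.0091), a filter on all 6 arrays (0.017) and a trended robust prior (0.0020, all limma). It also held with median scaling and the authors' table, which are the same scaling (each adjusted p = 0.00018, limma). There limma gave every probe the same standard error of 0.29, so this p does not reflect the spread of TC1646634 itself. The lower count was 0 in every setting run.

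Small values changed sign. Median scaling and the authors' table gave Abcd3 -0.046 and Slco2a1 -0.025. Quantile normalization gave Abca1 0.015 and Abcc6 A_66_P137268 0.020. The slide row gave Abcd3 -0.085, Slco2a1 -0.013, Slco2b1 A_55_P2030155 0.0060 and Abcc6 A_66_P137268 0.0059. Leaving out each mouse gave ranges across 0 in Abca1 (-0.15 to 0.056), Abca17 (-0.028 to 0.34), Abcc2 (-0.15 to 0.027), Abcc6 A_66_P137268 (-0.025 to 0.034), Abcb4 A_55_P1978696 (-0.26 to 0.022), Abcd3 (-0.020 to 0.12), Slco2a1 (-0.056 to 0.17) and Slco2b1 A_55_P2079009 (-0.071 to 0.014). The cause was not tested. Signal limits the dim probes: local background was lower than the 75th percentile by 9.89 to 12.3 times.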
